A study of Mus musculus with 8 samples.

Results

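Cytochrome P450 genes, with several genes of bile acid synthesis left out by name, were described in the livers of diabetic KKAy mice and normal C57BL/6J mice. Cyp2c70 and Cyp2a12, which also act on bile acids, were kept. Members were the array's probes whose gene name had the form of a single P450 gene. Cyp7a1, Cyp7b1, Cyp8b1, Cyp27a1, Cyp39a1, Cyp4a10, Cyp4a14 and all Cyp2b genes were left out, and the brightest probe stood for each gene. Of 71 P450 genes with such a name, 60 were left after these exclusions, and 54, in 25 subfamilies, had a probe that both arrays of 1 group or more showed well above background. These 54 members were among 17049 genes tested. The 6 genes under that filter were Cyp2c66, Cyp2w1, Cyp11a1, Cyp11b2, Cyp19a1 and Cyp24a1, none of which was above background on more than 1 array.

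The study measured liver RNA on 8 one-colour arrays, 2 for each of 4 groups. KKAy mice, labelled as having diabetes, and C57BL/6J mice, labelled as normal, were each taken at 4 and at 11 weeks of age. Both strains were kept on chow and fasted for 13.5 hours before sampling, and no label used here gives their sex. KKAy mice are of the KK strain and carry the yellow agouti allele Ay, so that a difference from C57BL/6J can come from the allele or from any other locus at which the strains differ, and these cannot be told apart here. The labels do not tie the 2 arrays of a group to separate animals, and the spread that p-values measure may be technical.

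P450 enzymes are haem proteins that insert oxygen into fat-soluble molecules, and the liver holds more of them than any other organ. Families Cyp1, Cyp2 and Cyp3 are best known for clearing drugs, pollutants, steroids and fatty acids, and Cyp4 enzymes for hydroxylating the ends of fatty acid chains. Families with higher numbers mostly act on a single kind of signal, such as a sex steroid, retinoic acid, vitamin D or an oxysterol. Most take their electrons from P450 oxidoreductase (Por), and their genes answer to receptors such as the aryl hydrocarbon receptor (Ahr), the constitutive androstane receptor (CAR, Nr1i3) and the pregnane X receptor (PXR, Nr1i2).

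The promoters of 4 members are printed, with capitals for letters that were searched for. RefSeq's table of the mouse build GRCm38.p6 held the 250 bases before the start of 44 of the 54 members, and each is printed on the strand of its gene. The Cyp26a1 promoter is shown because Cyp26a1 was higher in KKAy livers at both ages and higher at 11 than at 4 weeks in both strains. Its capitals mark the only match among the members to AGTTCA, any 5 bases and AGTTCA again, found here on the opposite strand. That string is a form of the retinoic acid response element of the DR5 type, and other forms were not searched for.
Cyp26a1, chr19:37697558-37697807, plus strand: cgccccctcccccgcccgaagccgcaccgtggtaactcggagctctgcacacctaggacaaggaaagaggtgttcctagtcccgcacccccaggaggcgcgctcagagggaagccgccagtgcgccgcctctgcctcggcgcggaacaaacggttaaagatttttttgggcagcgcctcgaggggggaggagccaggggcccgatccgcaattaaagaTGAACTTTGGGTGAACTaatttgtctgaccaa
The Cyp1b1 and Cyp1a1 promoters are shown because both genes are targets of Ahr and only Cyp1b1 passed the test between strains. Capitals mark GCGTG, the core that Ahr binds, or its reverse complement.
Cyp1b1, chr17:79715062-79715311, minus strand: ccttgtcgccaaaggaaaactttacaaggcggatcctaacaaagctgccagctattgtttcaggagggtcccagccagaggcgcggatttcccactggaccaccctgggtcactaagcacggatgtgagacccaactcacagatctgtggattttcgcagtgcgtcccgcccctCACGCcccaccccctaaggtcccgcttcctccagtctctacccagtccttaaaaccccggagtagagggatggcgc
Cyp1a1, chr9:57697363-57697612, plus strand: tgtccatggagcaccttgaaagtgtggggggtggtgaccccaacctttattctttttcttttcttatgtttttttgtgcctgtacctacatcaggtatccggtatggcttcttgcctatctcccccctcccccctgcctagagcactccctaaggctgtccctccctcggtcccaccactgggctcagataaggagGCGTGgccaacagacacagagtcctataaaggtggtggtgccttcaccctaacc
The Cyp2c38 promoter is shown because Cyp2c38 differed most between the strains, and its capitals mark TATAAA, a general core promoter element.
Cyp2c38, chr19:39463076-39463325, minus strand: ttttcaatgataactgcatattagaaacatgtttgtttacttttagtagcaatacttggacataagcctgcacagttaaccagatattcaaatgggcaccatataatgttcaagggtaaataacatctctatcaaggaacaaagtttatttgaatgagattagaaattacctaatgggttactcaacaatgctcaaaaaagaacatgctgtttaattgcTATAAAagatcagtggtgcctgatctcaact
On either strand, this form of the DR5 element stood in 0.0213% of 32851 mouse promoters of this length. GCGTG stood in 28.2% of them and in 9 members, and TATAAA in 12.4% of them and in 20 members. TTCNNNGAA, the core of the motif that STAT factors bind, stood in 7.02% of all and in 3 members, Cyp2j11, Cyp4b1 and Cyp4f13. A match describes letters and not binding.

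Each level below is the log2 of a probe's signal minus that of the 75th percentile of its array, so a level of 0 is the 75th percentile, and a difference of 1 is 2-fold. Levels of different probes are not set against each other. Of the 54 members, 37 had a mean level above 0 in all 4 groups, 11 were below 0 in all 4, and 6 crossed 0 between groups. No P450 spot was saturated. All members but Cyp1a1, above background on 6 arrays, were above background on all 8. Differences were tested with limma over all 8 arrays, and a member is called where its p, adjusted by Benjamini-Hochberg over all genes tested, was below 0.05.

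The 75th percentile of the signal ranged from 476 to 1192 over the arrays. Spots well above background made up 56.3% to 66.7% of each array. Each age had a slide of its own, with 4 arrays, and age cannot be told apart from slide. On both slides KKAy held positions 3 and 4 and C57BL/6J positions 1 and 2, so strain and position cannot be told apart either. Of 7 hepatocyte markers 6 were on the array, all above background on all arrays. Their summed linear level was 1509 to 1813 in KKAy against 1346 to 1765 in C57BL/6J at 4 weeks, and 1684 to 1988 in KKAy against 1957 to 1960 in C57BL/6J at 11 weeks. Within that list Apoa1, Tat and Cps1 were lower in KKAy at 11 weeks by -1.03, -0.87 and -0.91 (adjusted p = 0.0062, 0.00655 and 0.00442), Ttr was higher by 0.53 (adjusted p = 0.0327), and at 4 weeks Tat was lower by -0.58 (adjusted p = 0.0332). The 6 markers of Kupffer cells and macrophages, all detected, summed to 49.4 to 54.7 in KKAy against 130.0 to 150.7 in C57BL/6J at 4 weeks, and to 33.3 to 35.5 against 54.7 to 58.8 at 11 weeks. The 5 stellate cell markers summed to 44.1 to 51.6 in KKAy against 53.0 to 60.9 in C57BL/6J at 4 weeks, and to 22.9 to 28.9 against 42.3 to 46.5 at 11 weeks. Among these, Dcn, Reln and Col1a1 were lower in KKAy at 11 weeks by -0.87, -0.63 and -0.996 (adjusted p = 0.0248, 0.0273 and 0.0123). Col3a1 was higher then by 0.54 (adjusted p = 0.0123), and Lrat gave 0.27 and was not called. At 4 weeks Col1a1 and Col3a1 were lower by -0.86 and -0.47 (adjusted p = 0.0251 and 0.0253), and Dcn, Lrat and Reln were not called. In whole liver, fewer cells of a type and less RNA per cell cannot be told apart, and the part of these cells in the differences below was not tested.

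At 4 weeks 13 of the 54 members differed between the strains, 7 higher and 6 lower in KKAy livers, where 15.4% of all genes tested were called, 6.41% higher and 9.0% lower. Higher were Cyp2c38, Cyp1b1, Cyp46a1, Cyp26a1, Cyp26b1, Cyp2g1 and Cyp3a13, and lower were Cyp17a1, Cyp2c55, Cyp4x1, Cyp2u1, Cyp2c37 and Cyp3a25. The median difference was 0.13 over the members and 0.01 over all genes tested. Of the 13, 8 were at least 2-fold apart, as were 1373 of the 2626 genes called among all genes.

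At 11 weeks 21 members were called, 17 higher and 4 lower in KKAy, where 21.5% of all genes were called. All genes split the other way, with 9.95% higher and 11.5% lower. The median difference was 0.35 over the members and -0.00 over all genes. The Cyp2 family made up most of the calls higher in KKAy, with 13 of its 29 members higher and 0 lower. Of the 29, 19 had an unadjusted limma p below 0.05, as had 5823 of all 17049 genes. Of the 9 Cyp4 members, Cyp4f14 was higher and Cyp4a12, Cyp4b1 and Cyp4x1 were lower.

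Of the 54 members 8 were called at both ages, and 9.98% of all genes were. Cyp1b1, Cyp2c38, Cyp2g1, Cyp26a1 and Cyp46a1 were higher in KKAy both times, and Cyp17a1 and Cyp4x1 lower both times. Cyp2u1 was lower at 4 weeks and higher at 11 weeks. Members called and at least 2-fold apart numbered 8 of 54 at 4 weeks, beside 1373 of 17048 genes tested. At 11 weeks they numbered 11 of 54, beside 1681 of 17049 genes tested. The plot shows the strain differences by subfamily.

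**Figure D1:**
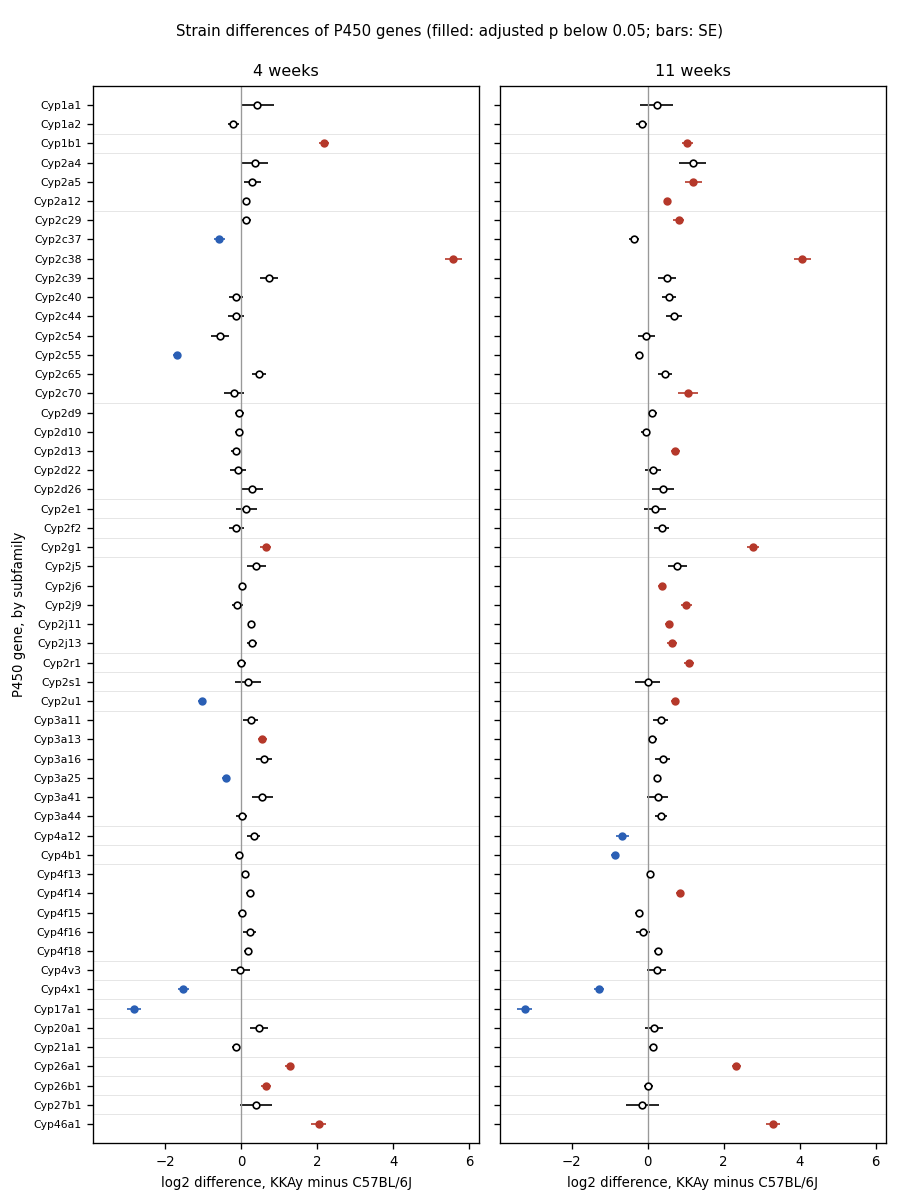
Difference in log2 level between KKAy and C57BL/6J livers for each of the 54 P450 genes, ordered by subfamily, at 4 weeks (left) and 11 weeks (right). Points are limma estimates from 2 arrays a group with SE bars, filled red where called higher in KKAy and blue where called lower. Cyp2c38 lies far to the right at both ages and Cyp17a1 far to the left, and the red Cyp2 points are many in the right panel and few in the left.

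Cyp17a1, the steroid 17-hydroxylase, was lower in KKAy than in C57BL/6J by more than any other member at both ages. Its probe (mm8 chr19:46721415-46722028) had levels of 0.59 and 0.61 on the KKAy arrays at 4 weeks, against 3.46 and 3.39 on the C57BL/6J arrays. At 11 weeks the levels were -0.67 and -0.12 in KKAy against 2.96 and 2.73 in C57BL/6J. Every KKAy array was therefore below every C57BL/6J array. The fold difference was 7.08 at 4 weeks (log2 difference -2.82, SE 0.20, adjusted p = 0.000637) and 9.45 at 11 weeks (log2 difference -3.24, SE 0.20, adjusted p = 0.00032).

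The other enzymes of steroid synthesis were at or near the floor. Cyp11a1, which starts steroid synthesis from cholesterol, Cyp11b2, the aldosterone synthase, and Cyp19a1, the aromatase, did not pass the filter. Cyp21a1, the steroid 21-hydroxylase, had levels between -3.47 and -2.86 on all 8 arrays, with a difference between strains of -0.14 (SE 0.11, adjusted p = 0.516) at 4 weeks and 0.13 (SE 0.11, adjusted p = 0.488) at 11 weeks. The 3 adrenal cortex markers, Star, Hsd3b1 and Mc2r, were above background on all arrays, with a summed linear level of 0.427 to 0.434 in KKAy against 0.455 to 0.501 in C57BL/6J at 4 weeks and 0.464 to 0.504 against 0.191 to 0.209 at 11 weeks.

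In adult mouse liver Cyp17a1 is known as a gene with more transcript in females, and so are Cyp2a4, Cyp2c40, Cyp2c69, Cyp3a16, Cyp3a41 and Cyp3a44. Of these 7, 6 were measured, and by their brightest probes Cyp17a1 alone was called between strains at either age, where 15.4% of all genes were called at 4 weeks and 21.5% at 11 weeks. Second probes of 3 others passed with KKAy higher: Cyp3a44 at 4 weeks, by 5.29 (adjusted p = 0.000777), and Cyp2a4 and Cyp2c40 at 11 weeks, by 1.38 (adjusted p = 0.00065) and 0.79 (SE 0.15, adjusted p = 0.0169). Cyp3a16, known as a gene of young liver, had levels of 7.42 and 7.81 in KKAy against 6.78 and 7.25 in C57BL/6J at 4 weeks, and 7.25 and 7.46 against 6.95 and 6.98 at 11 weeks. Cyp2c40, a hydroxylase of arachidonic acid, had 7.23 and 7.25 in KKAy against 6.57 and 6.78 in C57BL/6J at 11 weeks, on a probe that also lists Cyp2c67 and Cyp2c68. Cyp3a41 had 8.66 and 9.07 in KKAy against 7.97 and 8.66 in C57BL/6J at 4 weeks, and 8.76 and 9.14 against 8.63 and 8.74 at 11 weeks. On these brightest probes none of the differences passed the test (lowest adjusted p = 0.0762, for Cyp2c40 at 11 weeks). With spike-in scaling Cyp3a16 and Cyp3a41 at 4 weeks and Cyp2c40 at 11 weeks did pass, KKAy being higher by 0.96, 0.90 and 0.71 (adjusted p = 0.017, 0.0369 and 0.0321).

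The list of genes with more transcript in males held Cyp2d9, Cyp4a12 and Cyp2u1. Cyp2d9, a steroid 16-hydroxylase, had 8.04 and 8.03 in KKAy against 8.06 and 8.11 in C57BL/6J at 4 weeks, and 8.70 and 8.50 against 8.56 and 8.40 at 11 weeks. It did not pass the test between strains (log2 difference -0.05, SE 0.12, adjusted p = 0.86 at 4 weeks and 0.12, SE 0.12, adjusted p = 0.549 at 11 weeks). The brightest Cyp2d9 probe also lists Cyp2d22 and Cyp2d34, so its values are uncertain between these genes. Cyp2u1 was called at both ages in opposite directions, by -1.04 at 4 weeks and 0.72 at 11 weeks. Cyp4a12 was called lower at 11 weeks on its brightest probe, and its second probe gave the opposite sign.

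Cyp26a1, the enzyme that clears retinoic acid, was higher in KKAy at both ages. Its probe (mm8 chr19:37766220-37766279) had levels of -0.37 and -0.20 in KKAy against -1.60 and -1.51 in C57BL/6J at 4 weeks. At 11 weeks it reached 2.48 and 2.62 in KKAy against 0.18 and 0.25 in C57BL/6J. The arrays of the strains did not overlap at either age, and within each strain the 11-week arrays were above the 4-week ones. The strain difference was 2.41-fold at 4 weeks (log2 difference 1.27, SE 0.11, adjusted p = 0.00146) and 5.04-fold at 11 weeks (2.33, SE 0.11, adjusted p = 0.000166).

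Cyp26b1, the second retinoic acid hydroxylase, moved otherwise. Its levels were 1.79 and 1.91 in KKAy against 1.21 and 1.19 in C57BL/6J at 4 weeks, and 1.23 and 1.49 against 1.33 and 1.36 at 11 weeks. The groups were apart at 4 weeks and overlapped at 11 weeks. The log2 difference was 0.65 (SE 0.12, adjusted p = 0.0185) at 4 weeks, a call lost in 8 of 19 alternatives, and 0.02 (SE 0.12, adjusted p = 0.952) at 11 weeks. Cyp26c1 was not tested here.

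Cyp46a1, known in brain as the cholesterol 24-hydroxylase, was higher in KKAy liver. Its levels were -0.15 and -0.23 in KKAy against -2.49 and -1.96 in C57BL/6J at 4 weeks, and 1.71 and 1.53 against -1.70 and -1.66 at 11 weeks. Both KKAy groups stood clear of both C57BL/6J groups. The difference was 4.09-fold at 4 weeks (log2 difference 2.03, SE 0.19, adjusted p = 0.0016) and 9.83-fold at 11 weeks (3.30, SE 0.19, adjusted p = 0.000262).

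**Figure D2:**
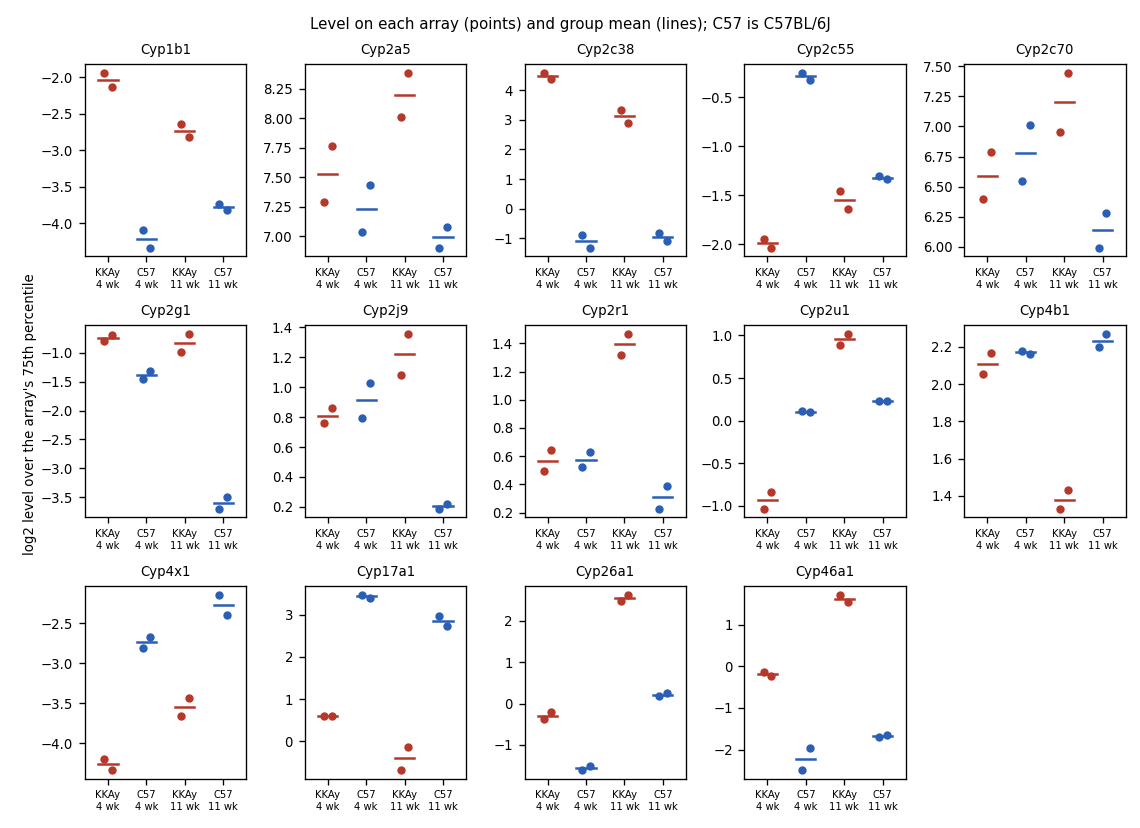
Log2 level on each array (points, 2 a group) and group mean (lines) for the 14 members called between strains with at least a 2-fold difference or called for the strain-by-age interaction. KKAy is red and C57BL/6J blue. Cyp17a1, Cyp26a1, Cyp46a1, Cyp2c38 and Cyp1b1 keep the strains apart at both ages, whereas Cyp2u1 changes the order of the strains between ages.

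Of the 3 Ahr targets, Cyp1b1 alone was called between strains, where 15.4% of all genes were called at 4 weeks and 21.5% at 11 weeks. Cyp1b1 hydroxylates oestrogens and polycyclic hydrocarbons and is better known from tissues other than liver. Its levels were low, at -1.94 and -2.14 in KKAy against -4.10 and -4.33 in C57BL/6J at 4 weeks, and at -2.64 and -2.82 against -3.74 and -3.82 at 11 weeks. The strains did not overlap at either age. The difference was 4.51-fold at 4 weeks (log2 difference 2.17, SE 0.14, adjusted p = 0.000519) and 2.07-fold at 11 weeks (1.05, SE 0.14, adjusted p = 0.0045). With normexp background correction it was 1.32 at 4 weeks and 0.54 at 11 weeks, and the second no longer passed (adjusted p = 0.0523).

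Cyp1a2, a main caffeine-clearing enzyme of hepatocytes near the central vein, averaged 4.87 ± 0.09 in KKAy and 5.09 ± 0.18 in C57BL/6J at 4 weeks, and 5.17 ± 0.13 and 5.33 ± 0.15 at 11 weeks (SD, n = 2 each). Neither difference passed the test (adjusted p = 0.442 and 0.515). Cyp1a1, the classical marker of Ahr activation, was close to background throughout, from -5.63 to -4.09 in KKAy and from -5.60 to -4.69 in C57BL/6J. Its SE of 0.44 was the widest among the members. Ahr itself was lower in KKAy at both ages, by -0.71 (SE 0.11, adjusted p = 0.00836) and -0.55 (SE 0.11, adjusted p = 0.017).

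The Cyp2c subfamily, whose enzymes make epoxides of arachidonic acid and clear many drugs, held the member with the widest strain difference. The probe of Cyp2c38 (mm8 chr19:39443259-39443318) had levels of 4.59 and 4.36 in KKAy against -0.89 and -1.31 in C57BL/6J at 4 weeks, and 3.34 and 2.89 against -0.83 and -1.09 at 11 weeks. The C57BL/6J arrays all lay between -1.31 and -0.83, far under the KKAy ones. The difference was 47.7-fold at 4 weeks (log2 difference 5.57, SE 0.22, adjusted p = 0.000144) and 16.8-fold at 11 weeks (4.07, SE 0.22, adjusted p = 0.000241). A second Cyp2c38 probe had levels of 1.71 and 0.74 in KKAy against -0.32 and -0.99 in C57BL/6J at 4 weeks, and 1.26 and 0.03 against 0.02 and -0.51 at 11 weeks. It pointed the same way by less and did not pass the test (log2 difference 1.88, SE 0.52, adjusted p = 0.0692 at 4 weeks and 0.89, SE 0.52, adjusted p = 0.302 at 11 weeks).

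Cyp2c55, which makes the hydroxy acid 19-HETE from arachidonic acid and is induced through CAR and PXR, was lower in young KKAy mice. Its levels were -1.94 and -2.03 in KKAy against -0.25 and -0.32 in C57BL/6J at 4 weeks, and -1.46 and -1.65 against -1.31 and -1.33 at 11 weeks. The groups were 3.25-fold apart at 4 weeks (log2 difference -1.70, SE 0.11, adjusted p = 0.000519) and close at 11 weeks (-0.23, SE 0.11, adjusted p = 0.196).

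Some other Cyp2c genes were called at a single age by their brightest probes, and whether their strain differences changed with age did not pass the test. Cyp2c29, another CAR target, had levels of 7.62 and 7.47 in KKAy against 6.77 and 6.70 in C57BL/6J at 11 weeks (log2 difference 0.81, SE 0.13, adjusted p = 0.00904), while its levels at 4 weeks were 7.22 and 7.13 against 6.91 and 7.18. Cyp2c70, which makes the muricholic acids typical of mice, had 6.95 and 7.45 in KKAy against 5.99 and 6.28 in C57BL/6J at 11 weeks (1.06, SE 0.26, adjusted p = 0.0354, a call lost in 5 of 19 alternatives), and overlapped between strains at 4 weeks. Cyp2c37, an epoxygenase of arachidonic acid, had 5.37 and 5.28 in KKAy against 5.92 and 5.88 in C57BL/6J at 4 weeks, where it was lower (-0.58, SE 0.14, adjusted p = 0.0397, a call lost in 12 of 19 alternatives). A second Cyp2c37 probe was called lower in KKAy at both ages, as given below. By their brightest probes Cyp2c39, Cyp2c40, Cyp2c44, Cyp2c54 and Cyp2c65 were not called between strains at either age, with differences from -0.56 to 0.73.

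Of the 3 Cyp2a genes, 2 were called higher in KKAy at 11 weeks by their brightest probes, where 9.95% of all genes were called higher. Cyp2a5, a coumarin hydroxylase known to respond to several kinds of liver injury, had levels of 8.01 and 8.39 in KKAy against 6.91 and 7.08 in C57BL/6J, and 7.29 and 7.76 against 7.04 and 7.43 at 4 weeks. The groups were apart at 11 weeks and overlapped at 4 weeks. The 11-week difference was 1.20 (SE 0.23, adjusted p = 0.0164). That call was lost without the second KKAy array or without either C57BL/6J array of 11 weeks (highest adjusted p = 0.107). The brightest Cyp2a5 probe also lists Cyp2a4. The probe that lists Cyp2a5 alone had 7.76 and 8.34 in KKAy against 6.94 and 7.31 in C57BL/6J at 11 weeks, and its difference of 0.92 (SE 0.36, adjusted p = 0.136) did not pass. Cyp2a12, a bile acid and testosterone hydroxylase, differed by 0.52 (SE 0.10, adjusted p = 0.0159), a call lost in 6 of 19 alternatives. Cyp2a4, a testosterone hydroxylase, had 6.72 and 7.34 in KKAy against 5.62 and 6.06 in C57BL/6J at 11 weeks and differed by 1.19 (SE 0.36, adjusted p = 0.0671) on its brightest probe. Its second probe differed by 1.38 (SE 0.10, adjusted p = 0.00065), and both probes list Cyp2a4 and Cyp2a5, so they do not separate these 2 genes.

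Cyp2g1, a gene known from olfactory mucosa that lies beside the Cyp2a genes, parted the strains at 11 weeks. Its levels were -0.80 and -0.69 in KKAy against -1.45 and -1.31 in C57BL/6J at 4 weeks, and -0.98 and -0.67 against -3.70 and -3.50 at 11 weeks. Only the C57BL/6J arrays of 11 weeks stood away from the rest. The difference was 1.55-fold at 4 weeks (log2 difference 0.64, SE 0.15, adjusted p = 0.0381, a call lost in 9 of 19 alternatives) and 6.83-fold at 11 weeks (2.77, SE 0.15, adjusted p = 0.000214). With normexp background correction the 11-week difference was 1.78, still past the test.

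In the Cyp2j subfamily, known for making epoxides of arachidonic acid, 4 of 5 genes were higher in KKAy at 11 weeks by their brightest probes. None was called at 4 weeks. Of all genes, 9.95% were called higher at 11 weeks, and 15.4% were called at 4 weeks. Cyp2j9 had levels of 1.08 and 1.36 in KKAy against 0.19 and 0.22 in C57BL/6J at 11 weeks, and 0.76 and 0.86 against 0.79 and 1.03 at 4 weeks. The strains overlapped at 4 weeks and were 2.02-fold apart at 11 weeks (log2 difference 1.02, SE 0.14, adjusted p = 0.00536). Cyp2j6, Cyp2j11 and Cyp2j13 differed at 11 weeks by 0.37, 0.56 and 0.65 (adjusted p = 0.0413, 0.00927 and 0.0185). Cyp2j5 differed by 0.78 (SE 0.26, adjusted p = 0.0872) on its brightest probe, and its second probe by 0.87 (SE 0.11, adjusted p = 0.00379). The Cyp2j9 call was kept in all 19 alternatives, while those of Cyp2j6, Cyp2j11 and Cyp2j13 were lost in 13, 4 and 6.

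Of the 5 Cyp2d genes, a drug-clearing subfamily, Cyp2d13 alone was called between strains by brightest probes, at 11 weeks only. Of all genes, 15.4% were called at 4 weeks and 21.5% at 11 weeks. Cyp2d13 had 2.57 and 2.78 in KKAy against 1.90 and 2.00 in C57BL/6J at 11 weeks (log2 difference 0.72, SE 0.12, adjusted p = 0.01). A further Cyp2d22 probe was called lower in KKAy at both ages, as given below. Cyp2e1, which clears ethanol and paracetamol in hepatocytes near the central vein and is often described as raised in diabetes, averaged 7.29 ± 0.30 in KKAy and 7.16 ± 0.53 in C57BL/6J at 4 weeks, and 7.80 ± 0.20 and 7.60 ± 0.11 at 11 weeks (SD, n = 2 each). Its difference was 0.13 (SE 0.28, adjusted p = 0.851) at 4 weeks and 0.20 (SE 0.28, adjusted p = 0.693) at 11 weeks. Cyp2f2, a marker of hepatocytes near the portal vein, had 7.40 and 7.68 in KKAy against 7.44 and 7.89 in C57BL/6J at 4 weeks, and 8.23 and 8.54 against 7.96 and 8.07 at 11 weeks. It was not called between strains at either age (adjusted p = 0.777 and 0.268).

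Cyp2r1, the vitamin D 25-hydroxylase, did not separate the strains in young mice, with 0.49 and 0.64 in KKAy against 0.52 and 0.63 in C57BL/6J. At 11 weeks its levels were 1.32 and 1.47 in KKAy against 0.23 and 0.39 in C57BL/6J. The groups, overlapping at 4 weeks, were 2.12-fold apart at 11 weeks (log2 difference 1.09, SE 0.12, adjusted p = 0.00238), a call kept in all 19 alternatives. Cyp27b1, which activates vitamin D mainly in kidney, was near background with an SE of 0.43 and was not called. Cyp24a1, which breaks vitamin D down, did not pass the filter.

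Cyp2u1, a fatty acid hydroxylase, reversed between ages. Its levels were -1.03 and -0.83 in KKAy against 0.11 and 0.10 in C57BL/6J at 4 weeks, and 0.89 and 1.02 against 0.23 and 0.23 at 11 weeks. KKAy was under C57BL/6J in young mice and above it in older ones. The log2 difference was -1.04 (SE 0.11, adjusted p = 0.00281) at 4 weeks and 0.72 (SE 0.11, adjusted p = 0.00766) at 11 weeks. The 11-week call was lost without either C57BL/6J array of 11 weeks (highest adjusted p = 0.0649).

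The Cyp3a subfamily holds the main drug-clearing P450s and targets of PXR. By brightest probes it showed 2 calls at 4 weeks, where 15.4% of all genes were called, and 0 at 11 weeks, where 21.5% were. At 11 weeks 1 of its 6 members had an unadjusted limma p below 0.05, as had 5823 of all 17049 genes. Cyp3a13 had 5.99 and 6.13 in KKAy against 5.43 and 5.59 in C57BL/6J at 4 weeks (log2 difference 0.55, SE 0.12, adjusted p = 0.0327), and Cyp3a25 had 6.57 and 6.53 against 6.88 and 7.02 (-0.40, SE 0.10, adjusted p = 0.0479). Both were small differences, and their calls were lost in 8 and 15 of 19 alternatives. A second Cyp3a44 probe was called higher in KKAy at 4 weeks by a wider difference, as given below. Cyp3a11, the most studied Cyp3a gene of mouse liver, had 8.65 and 8.92 in KKAy against 8.31 and 8.77 in C57BL/6J at 4 weeks, and 8.81 and 9.06 against 8.60 and 8.58 at 11 weeks. It differed by 0.24 (SE 0.19, adjusted p = 0.521) and 0.35 (SE 0.19, adjusted p = 0.278). Its probe also lists Cyp3a41a and Cyp3a44.

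Among the Cyp4 genes, Cyp4x1, which is known from brain, was lower in KKAy at both ages. Its levels were -4.20 and -4.34 in KKAy against -2.80 and -2.67 in C57BL/6J at 4 weeks, and -3.66 and -3.44 against -2.15 and -2.39 at 11 weeks. The strains did not overlap at either age. The log2 difference was -1.53 (SE 0.14, adjusted p = 0.00166) and -1.28 (SE 0.14, adjusted p = 0.00233). With normexp the 4-week difference was -0.58 and no longer passed (adjusted p = 0.0659), and the 11-week difference was -0.65.

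Cyp4b1, a fatty acid hydroxylase known mainly from lung, was lower in KKAy at 11 weeks. Its levels were 1.33 and 1.43 in KKAy against 2.20 and 2.27 in C57BL/6J at 11 weeks, and 2.05 and 2.17 against 2.18 and 2.16 at 4 weeks. The older KKAy arrays were the only ones under 2. The 11-week difference was -0.85 (SE 0.10, adjusted p = 0.00302). Cyp4f14, a leukotriene B hydroxylase of mouse liver, went the other way, with 6.06 and 6.08 in KKAy against 5.23 and 5.23 in C57BL/6J at 11 weeks (0.84, SE 0.10, adjusted p = 0.00318). Cyp4f13, Cyp4f15, Cyp4f16, Cyp4f18 and Cyp4v3 were not called between strains, and neither was Cyp20a1, whose substrate is not known.

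Differences between ages are also differences between slides. In KKAy 19 members were called, 12 higher and 7 lower at 11 weeks. Of all genes 18.6% were called in KKAy, 7.89% higher and 10.7% lower. In C57BL/6J 6 members were called, 1 higher and 5 lower. Of all genes 8.38% were called in C57BL/6J, 1.89% higher and 6.48% lower. Cyp26a1 was the only member called higher in both strains, by 2.84 (SE 0.11, adjusted p = 0.00015) in KKAy and 1.77 (SE 0.11, adjusted p = 0.00103) in C57BL/6J. The next largest rises in KKAy were those of Cyp2u1 (1.89, SE 0.11, adjusted p = 0.000463) and Cyp46a1 (1.81, SE 0.19, adjusted p = 0.0026). Cyp2c38, Cyp17a1 and Cyp4f16 changed by -1.36, -0.999 and -0.94 in KKAy (adjusted p = 0.0118, 0.0208 and 0.0177). The 5 that fell in C57BL/6J were all Cyp2 genes: Cyp2g1 (-2.22), Cyp2c55 (-1.03), Cyp2c40 (-0.85), Cyp2j9 (-0.71) and Cyp2a12 (-0.46). Without either KKAy array of 4 weeks, 5 of the 19 calls in KKAy were left, and without single arrays 3 to 4 were made in C57BL/6J.

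The strain difference itself changed between ages for 8 members, where 3.81% of all genes were called, 2.06% higher and 1.75% lower. For 6 of them it moved towards KKAy at 11 weeks: Cyp2g1 (2.14, SE 0.21, adjusted p = 0.00816), Cyp2u1 (1.76, SE 0.16, adjusted p = 0.00672), Cyp2c55 (1.47, SE 0.15, adjusted p = 0.0101), Cyp2j9 (1.12, SE 0.20, adjusted p = 0.0434), Cyp2r1 (1.09, SE 0.17, adjusted p = 0.0305) and Cyp26a1 (1.07, SE 0.16, adjusted p = 0.027). For Cyp1b1 (-1.12, SE 0.20, adjusted p = 0.041) and Cyp4b1 (-0.79, SE 0.14, adjusted p = 0.0442) it moved towards C57BL/6J. They came about in different ways, by age changes within a strain that cannot be told apart from slide. Cyp2g1 changed in C57BL/6J and not detectably in KKAy. Cyp2u1, Cyp2r1 and Cyp4b1 changed in KKAy and not detectably in C57BL/6J. Cyp26a1 was called higher in both strains, Cyp1b1 was called lower in KKAy and Cyp2j9 lower in C57BL/6J. The Cyp1b1 and Cyp2j9 calls were each lost in 9 of 18 alternatives. Cyp2c55 fell in C57BL/6J. In KKAy Cyp2c55 gave 0.43 (adjusted p = 0.0432), a call lost in 10 of 18 alternatives, with 0.23 as its lowest value. None of the 8 calls held in all 18 alternatives, and without either C57BL/6J array of 11 weeks 0 were made.

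**Figure D3:**
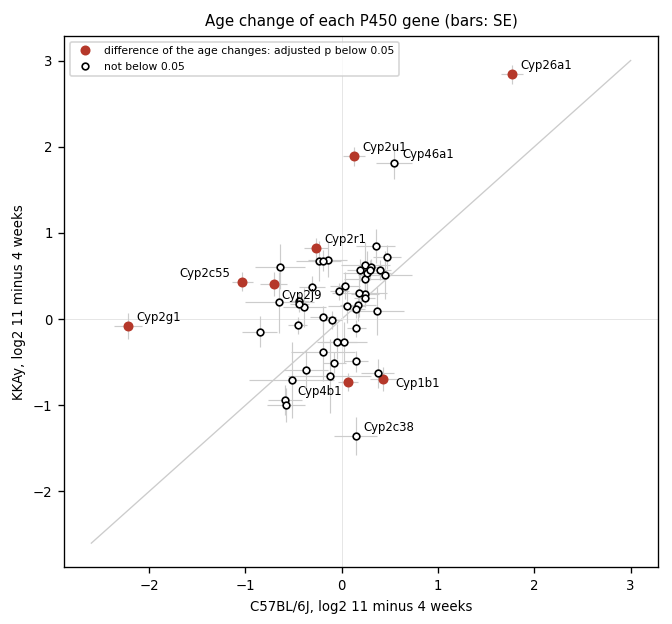
Log2 difference, 11 minus 4 weeks, in KKAy (vertical) and C57BL/6J (horizontal) for the 54 P450 genes, with SE bars, 2 arrays a group. Red points are the 8 members whose age changes differ between strains. Cyp26a1 stands high on both axes, Cyp2u1 and Cyp46a1 on the KKAy axis alone, and Cyp2g1 far down the C57BL/6J axis.

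Of the members 14 had 2 or more probes past the filter, with 15 further probes beside the brightest ones, and these did not always agree. Fitted probe by probe, 14.5% of all probes were called between strains at 4 weeks and 21.0% at 11 weeks, and with age 17.3% in KKAy and 6.98% in C57BL/6J. The plot of probe pairs shows the widest gap for Cyp3a44. Its brightest probe (mm8 chr5:146078612-146078671) stayed between 7.44 and 8.06 on all 8 arrays. Its second probe (mm8 chr5:146078375-146078434) had levels of 3.46 and 4.15 in KKAy against -1.78 and -1.19 in C57BL/6J at 4 weeks, and -3.71 and -3.02 against -4.46 and -3.86 at 11 weeks. The second probe was thus high only on the arrays of young KKAy livers. It differed between strains by 5.29 (SE 0.38, adjusted p = 0.000777) at 4 weeks and 0.79 (SE 0.38, adjusted p = 0.211) at 11 weeks, and its age difference, 11 minus 4 weeks, was -7.17 in KKAy (SE 0.38, adjusted p = 0.000375) and -2.68 in C57BL/6J (SE 0.38, adjusted p = 0.0137).

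Cyp4a12, a fatty acid hydroxylase with more transcript in males, gave opposite signs. Its brightest probe had levels of 6.74 and 6.28 in KKAy against 7.27 and 7.11 in C57BL/6J at 11 weeks (log2 difference -0.67, SE 0.17, adjusted p = 0.04, a call lost or turned in 13 of 19 alternatives). The second probe had 6.91 and 7.40 in KKAy against 5.67 and 5.96 in C57BL/6J, a difference of 1.34 (SE 0.27, adjusted p = 0.0195), and 5.49 and 5.96 against 3.58 and 4.05 at 4 weeks (1.91, SE 0.27, adjusted p = 0.0072). No direction can therefore be given for Cyp4a12. Both probes list Cyp4a12a and Cyp4a12b.

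For Cyp2c37 the second probe kept the sign and was lower in KKAy by -1.10 (SE 0.11, adjusted p = 0.00249) at 4 weeks and -1.96 (SE 0.11, adjusted p = 0.000315) at 11 weeks, while the brightest probe, which also lists Cyp2c50, gave -0.58 and -0.36. One of the further Cyp2d22 probes was lower in KKAy by -0.75 at both ages (adjusted p = 0.00735 and 0.00629), whereas the brightest probe gave -0.09 and 0.13. In all, 7 members had a brightest probe that lists more than 1 P450 gene, and their values are uncertain between those genes. The cause of the disagreements was not tested.

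**Figure D4:**
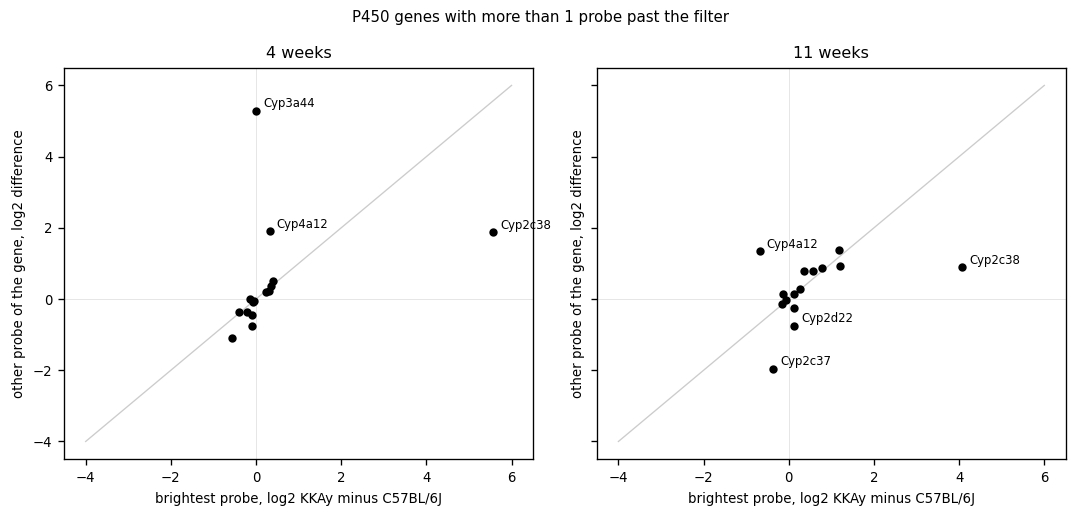
Log2 difference between KKAy and C57BL/6J on the brightest probe of a P450 gene (horizontal) and on each of its 15 further probes past the filter (vertical), at 4 weeks (left) and 11 weeks (right). The grey line marks equal values. Most pairs lie near it, and Cyp3a44 at 4 weeks, Cyp2c38, Cyp4a12 and Cyp2c37 are the pairs farthest away.

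Genes that P450s depend on were read from a list of 37 partners and regulators. Of these, 4 were higher and 5 lower in KKAy at 4 weeks, and 9 higher and 5 lower at 11 weeks, where 15.4% and 21.5% of all genes were called. Por, the electron donor of most microsomal P450s, was lower in KKAy at 11 weeks by -0.91 (SE 0.20, adjusted p = 0.0271), with mean levels of 6.85 ± 0.22 in KKAy and 7.75 ± 0.08 in C57BL/6J (SD, n = 2 each). The cytochrome b5 branch, a second source of electrons, moved the other way in part: Cyb5b differed by 1.17 (SE 0.20, adjusted p = 0.00997) and Cyb5r3 by 0.71 (SE 0.10, adjusted p = 0.00478), while Cyb5r1 was lower by -0.96 (SE 0.09, adjusted p = 0.00136). Fdx1, the ferredoxin of mitochondrial P450s, was higher by 0.66 (SE 0.10, adjusted p = 0.00611), and Pgrmc1, a haem-binding partner, by 0.72 (SE 0.14, adjusted p = 0.0173).

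Alas1, the rate-limiting enzyme of haem synthesis, was not called between strains (adjusted p = 0.439 at 4 weeks and 0.0664 at 11 weeks) and fell with age in both, by 0.91 in KKAy (adjusted p = 0.00338) and by 0.72 in C57BL/6J (adjusted p = 0.0112). Among the receptors, CAR (Nr1i3) was higher in KKAy by 0.65 (SE 0.09, adjusted p = 0.00707) at 4 weeks and 0.41 (SE 0.09, adjusted p = 0.0293) at 11 weeks, and PXR (Nr1i2) was not called (adjusted p = 0.159 and 0.488). Of 6 members known as CAR or PXR targets, by their brightest probes 1 was higher and 2 were lower in KKAy at 4 weeks. By the same probes 2 were higher and 0 lower at 11 weeks, beside the same shares of all genes. Cux2, a repressor of male-biased genes found in female mouse liver, was above background on 1 of 2 KKAy and 2 of 2 C57BL/6J arrays at 4 weeks, and on 0 of 2 KKAy and 2 of 2 C57BL/6J arrays at 11 weeks. At 11 weeks Cux2 was called lower in KKAy by limma (adjusted p = 0.00348), from KKAy signals not above background. The difference was at least 1.36-fold, the C57BL/6J mean being set against the lowest signal well above background on each KKAy array. The adjusted p does not test that bound. Bcl6, a repressor with more transcript in males, was lower by -1.65 at 4 weeks (SE 0.35, adjusted p = 0.0287) and gave 0.70 at 11 weeks (SE 0.35, adjusted p = 0.228). Nr0b2, the corepressor SHP, was lower by -1.05 (SE 0.13, adjusted p = 0.00458) at 4 weeks and higher by 0.91 (SE 0.13, adjusted p = 0.00624) at 11 weeks.

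The balance of directions moved with the scale. Scaling to the spiked-in RNAs moved the median of all genes to 0.37 between strains at 4 weeks and to 0.14 at 11 weeks, to -0.19 for age in KKAy and to -0.21 for the interaction, and scaling to the median moved it to 0.12 at 4 weeks, 0.13 for age in KKAy and 0.20 for age in C57BL/6J. Of all genes called, the share higher in KKAy was 41.6% at 4 weeks and 46.4% at 11 weeks, against 76.3% and 61.0% with spike-in scaling and 54.1% and 56.0% with median scaling. The share higher at 11 weeks was 42.4% in KKAy and 22.6% in C57BL/6J, against 19.3% and 19.6% with spike-in scaling and 58.2% and 44.9% with median scaling. Members called between strains numbered 11 higher and 4 lower at 4 weeks with spike-in scaling, and 20 higher and 3 lower at 11 weeks. Members called with age in KKAy numbered 3 higher and 8 lower with spike-in scaling and 17 higher and 4 lower with median scaling.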

How the data were processed

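Liver RNA had been labelled with Cy3 and hybridised to Agilent one-colour mouse arrays, and the authors read them with Agilent Feature Extraction 9.5.1.1, per the submitters' processing notes. The deposited scanner files hold intensity per spot (background-subtracted processed signal) and flags for spots above background, with probe coordinates on mm8 per the file headers. The deposited value table holds log2 values. For at least 99.5% of probes on each array it equalled log2 of the processed signal minus a constant, within 0.001. Its direction and scale are thus those of the signal, and its column medians ran from -3.96 to -3.67.

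From the 43379 spots of each array, control and flagged spots were dropped, spots of a probe were averaged, and each array's 75th percentile of log2 signal was subtracted. A probe was kept if both arrays of some group showed it well above background, which left 25319 of 41174 probes and 17049 genes by their brightest probe. File names of genes were updated by accession or older symbol through RefSeq's gene table, which renamed 3 members (Cyp2c44 to Cyp2c23, Cyp3a41 to Cyp3a41a and Cyp4a12 to Cyp4a12a), and the files' names were kept. The model was 1 mean a group over all 8 arrays (R 4.3.3, limma 3.58.1, with lmFit and eBayes, 4 residual degrees of freedom and 1.93 prior ones), with Benjamini-Hochberg adjustment over all genes. Over genes, the SD between a group's 2 arrays had a median of 0.126 to 0.222, and this number of arrays limits the precision. Tables and figures were made with Python 3.11.15, numpy 2.4.6, pandas 2.3.3 and matplotlib 3.10.9. The fit was tested on simulated data.

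Members, lists and tests were chosen with earlier results of these data known. Any member could be named, and values by array are given for those called between strains by 2-fold or more, those called for the interaction and most of the role lists, the others by range, mean or difference. No value column was left unmapped (0).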

Additional observations from a re-analysis of the deposited data

Results flagged for a closer look

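For 8 members the difference between KKAy and C57BL/6J changed between 4 and 11 weeks by the test of that change itself. As the log2 difference at 11 weeks minus that at 4 weeks, it was 2.14 for Cyp2g1, 1.76 for Cyp2u1, 1.47 for Cyp2c55, 1.12 for Cyp2j9, 1.09 for Cyp2r1 and 1.07 for Cyp26a1, all towards KKAy. It was -1.12 for Cyp1b1 and -0.79 for Cyp4b1, towards C57BL/6J. The groups held 2 arrays each, so no single array could be tested as lying apart from its group.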

How the results depend on the processing

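Among the members called at 4 weeks between strains, 7 of 13 kept their call in all 19 alternatives, and 10 of 21 did at 11 weeks. With age, 3 of 19 in KKAy, 3 of 6 in C57BL/6J and 0 of 8 for the interaction kept it in all 18. The deposited value table changed no call. Leaving out each array in turn gave 8 to 12 called at 4 weeks (7.73% to 15.2% of all genes), 11 to 20 at 11 weeks (8.65% to 18.0%), 5 to 14 with age in KKAy (7.84% to 14.1%), 3 to 4 in C57BL/6J (2.7% to 7.8%) and 0 to 3 for the interaction (0.364% to 1.73%). The 5 came without either KKAy array of 4 weeks, and the 0, like the 11, without either C57BL/6J array of 11 weeks. The 8 came without any one array of 4 weeks or of the older C57BL/6J mice.

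Without a filter on dim probes 8 were called at 4 weeks, 6 with age in KKAy, 3 in C57BL/6J and 2 for the interaction, beside 5.45%, 5.3%, 2.54% and 0.515% of 27597 genes. Normexp gave 5 for the interaction (1.89% of all genes), spike-in scaling 11 with age in KKAy (17.1%) and 2 for the interaction (2.45%), the mean of a gene's probes 10 with age in C57BL/6J (9.23%), and the 4 arrays of that age alone 8 at 4 weeks (8.24%). The mean of a gene's probes reversed Cyp4a12 at 11 weeks (0.33), Cyp2c37 with age in KKAy (-0.49), and Cyp3a44 with age in KKAy (-3.39), with age in C57BL/6J (-1.32) and for the interaction (-2.07). In these 3 genes the probes themselves differ.

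The replicate number is shared by the groups and its meaning is not given. With it as a block, 27, 37, 38, 20 and 30 members were called in the order above, beside 43.8%, 54.9%, 53.4%, 33.9% and 31.0% of all genes. Deviations of same-numbered arrays from their group means correlated at 0.53 to 0.68 over the 6 pairs of groups, a hint from the data only. On both slides number 1 held positions 1 and 3 and number 2 held positions 2 and 4, so number and position cannot be told apart. Dim probes such as Cyp1a1 and Cyp27b1 have the widest errors.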

Other observations

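Further marker lists, given as summed linear levels, moved between the groups. The 4 adipose tissue markers summed to 65.7 to 84.5 in KKAy against 47.0 to 61.1 in C57BL/6J at 4 weeks, and to 8.91 to 12.8 against 66.3 to 76.5 at 11 weeks. Cidec, a lipid droplet gene also induced in fatty hepatocytes, differed by -3.58 (adjusted p = 0.000279) at 11 weeks in that list. The 4 erythroid markers summed to 413 to 450 in KKAy against 282 to 324 in C57BL/6J at 4 weeks, and to 193 to 203 against 145 to 150.1 at 11 weeks. The 5 endothelial markers summed to 49.5 to 51.3 in KKAy against 34.6 to 35.0 in C57BL/6J at 4 weeks, and to 37.2 to 37.6 against 29.0 to 30.2 at 11 weeks. Among them Clec4g was higher in KKAy by 0.72 (adjusted p = 0.0047) at 4 weeks and 0.47 (adjusted p = 0.017) at 11 weeks, Lyve1 was lower at 11 weeks by -2.18 (adjusted p = 0.00518), and Pecam1 gave -0.06 and -0.40 and was not called. The 6 lymphocyte markers, 3 of them above background on all arrays, summed to 0.579 to 0.649 in KKAy against 1.34 to 1.65 in C57BL/6J at 4 weeks, and to 0.501 to 0.528 against 0.741 to 0.742 at 11 weeks. The 5 cholangiocyte markers summed to 6.80 to 8.43 in KKAy against 8.87 to 10.9 in C57BL/6J at 4 weeks, and to 6.52 to 8.56 against 5.94 to 7.13 at 11 weeks. Within that list Sox9 was lower in KKAy by -0.63 (adjusted p = 0.0117) at 4 weeks and -1.36 (adjusted p = 0.000633) at 11 weeks. At 11 weeks Krt19, Krt7 and Epcam gave -0.36, -0.13 and -0.74, Spp1 gave 0.36, and none of these was called. The exocrine pancreas markers, 3 of 4 on the array, stayed between 0.0628 and 0.119. The part of these cells in the P450 values was not tested.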
